A study of Mus musculus with 860 samples.

Results

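The genes described here are Il7r, Flt3, Cd27, Ccr9 and Cd3g, 5 genes of early lymphoid cells taken by name out of the 46078 genes in the count table. They were followed by raw reads per cell across the deposited clusters and the sorted populations of 775 cells. The cells came from the aorta-gonad-mesonephros (AGM) region of mouse embryos on a CD1 background carrying the Gfi1:tomato reporter, with 1 Smart-Seq2 library (full-length cDNA) per cell. Cells were index sorted at 2 embryonic stages, E10.5 or E11.5 (named for the day after conception), as hemogenic endothelium (HE, CD31+cKIT-GFI1+) or as intra-aortic hematopoietic cluster cells (IAHC, CD31+cKIT+) that were GFI1+ or GFI1-. The study addressed Notch receptors and ligands along this path. The E10.5 cells kept by the authors were HE (18 in the batch labelled GL58 and 91 in GL78), GFI1+ IAHC (29 in GL69 and 87 in GL78) and GFI1- IAHC (3 in GL78, used in no comparison). Those of E11.5 were HE (19 in GL58, 40 in GL78 and 14.6% of all kept cells in GL53), 240 GFI1+ IAHC (30 in GL58, 89 in GL78 and 15.6% of all kept cells in GL53) and GFI1- IAHC (91 in GL53 and 44 in GL78). The labels give the strain of all cells as CD1/Gf1+ with no treatment and name no embryo for any cell, and by the study's methods AGMs of several embryos were pooled for a sort.

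Kept cells held 134284 to 2296823 counts, and the median per group ran from 573567 in E11.5 GFI1- IAHC to 879928 in E10.5 HE. Because no embryo is named, each group counts as 1 sample. There is therefore no test between groups, the intervals given are exact 95% intervals that cover counting error only (PCR reads carried no molecular identifiers), and the SD over batches is the only spread beyond that. A count of 0 is given instead with the limit that 3 counts would set. The study describes fewer pools of AGMs at each stage than there are batches, so batches can share embryos and their SD is not a spread between animals. Within a batch the stages never shared a plate (0 plates held both), so a difference between stages and a difference between plates cannot be told apart.

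As background, lymphoid fate is first visible in blood progenitors as the onset of receptor genes while B, T and innate programmes are still mixed with myeloid ones. Il7r encodes the alpha chain shared by the receptors for interleukin 7 and TSLP, on which lymphoid progenitors depend, and Flt3 encodes the receptor tyrosine kinase for FLT3 ligand, which is absent from the most primitive stem cells and marks lymphoid-primed multipotent progenitors. Cd27 encodes a receptor of the TNF receptor family, bound by CD70 and carried by stem cells and early progenitors as well as by lymphocytes. Ccr9 encodes the receptor for the chemokine CCL25 and steers lymphoid progenitors to the thymus and gut, and Cd3g encodes the gamma chain of the CD3 complex, the signalling part of the T cell receptor.

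All 5 genes were found in the count table. On GRCm38, Il7r (ENSMUSG00000003882) lies at chr15:9505788-9530176 on the minus strand, Flt3 (ENSMUSG00000042817) at chr5:147330741-147400489 on the minus strand, Cd27 (ENSMUSG00000030336) at chr6:125232622-125237010 on the minus strand, Ccr9 (ENSMUSG00000029530) at chr9:123678439-123784330 on the plus strand and Cd3g (ENSMUSG00000002033) at chr9:44969572-44980431 on the minus strand. The 150 bases before each RefSeq start site are shown (GRCm38.p6, all 5 genes matched, 5′ to 3′ on the strand of the gene), because the genes were read in the same few cells and a reader may want to compare what lies upstream of them. Capitals mark matches on either strand to 4 motifs of blood factors. RUNX factors were searched as TGTGGT, and E-box proteins as CANNTG. The motif of GATA factors was spelled AGATAA here, and that of ETS factors was spelled AGGAAG.
Il7r: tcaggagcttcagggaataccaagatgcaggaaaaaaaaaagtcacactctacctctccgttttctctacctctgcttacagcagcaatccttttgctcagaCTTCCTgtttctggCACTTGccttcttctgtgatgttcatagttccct
Flt3: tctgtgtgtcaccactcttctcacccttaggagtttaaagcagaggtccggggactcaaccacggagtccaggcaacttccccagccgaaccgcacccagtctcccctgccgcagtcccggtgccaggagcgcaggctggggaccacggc
Cd27: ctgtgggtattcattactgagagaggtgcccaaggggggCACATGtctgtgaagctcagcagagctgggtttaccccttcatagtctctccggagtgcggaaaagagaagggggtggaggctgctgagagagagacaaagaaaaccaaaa
Ccr9: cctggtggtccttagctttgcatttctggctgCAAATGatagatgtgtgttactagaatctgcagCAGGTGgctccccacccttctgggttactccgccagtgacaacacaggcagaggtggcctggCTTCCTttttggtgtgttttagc
Cd3g: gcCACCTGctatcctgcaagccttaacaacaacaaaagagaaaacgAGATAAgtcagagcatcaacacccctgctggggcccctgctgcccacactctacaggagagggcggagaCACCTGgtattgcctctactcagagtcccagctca

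The windows lie at chr15:9529877-9530026 (Il7r), chr5:147400490-147400639 (Flt3), chr6:125237028-125237177 (Cd27), chr9:123767061-123767210 (Ccr9) and chr9:44980432-44980581 (Cd3g). Il7r and Ccr9 each held an ETS match, 43 to 48 bases before the start in Il7r and 18 to 23 bases before it in Ccr9, and 19.7% of all 32851 such windows hold 1. Il7r, Cd27, Ccr9 and Cd3g held E-box letters, with 2 matches each in Ccr9 and Cd3g, and 47.7% of all windows hold them. Cd3g alone of the 5 held the GATA letters, which 5.65% of all windows hold. The RUNX letters, present in 8.40% of windows, were in none of the 5, and Flt3, whose window is 64% G and C against a median of 54% over all windows, held none of the 4 motifs. These matches describe the letters of the windows only.

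Reads of the 5 genes lay almost wholly in 1 of the 11 deposited clusters, cluster 2. Cluster 2 held 53 cells of E10.5 (11 HE and 42 GFI1+ IAHC) and 56 of E11.5 (7 HE, 39 GFI1+ IAHC and 10 GFI1- IAHC). Blood genes were widely read in it: Spi1, a master factor of blood cells, had reads in 93.6% of its cells, Ikzf1, the lymphoid factor Ikaros, in 84.4%, Kit, whose protein was used in the sort, in 96.3% and Ptprc, which encodes CD45, in 72.5%. Endothelial genes were read in it as well, mostly at E10.5. In GL78 its 36 E10.5 GFI1+ IAHC cells held reads of a median of 7 of 9 endothelial markers. The 15 such cells of E11.5 held a median of 2. By summed level all 9 were lower in cluster 2 than in the other clusters. Il7r had reads in 23 of all 775 cells (2.97%, interval 1.89 to 4.42%), and all 23 were in cluster 2. Cd3g had reads in 11 cells (1.42%, 0.711 to 2.53%), again all in cluster 2. For Ccr9 it was 18 of 21 cells and 98.8% of the reads, for Flt3 45 of 52 cells and 99.8% of the reads, and for Cd27 55 cells against 48 elsewhere and 82.6% of the reads. The clusters were made by the authors from the expression of these same cells, so these shares are a description and were not tested.

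Within cluster 2 the share of cells with at least 1 read was 50.5% for Cd27 (interval 40.7 to 60.2%), 41.3% for Flt3 (31.9 to 51.1%), 21.1% for Il7r (13.9 to 30%), 16.5% for Ccr9 (10.1 to 24.8%) and 10.1% for Cd3g (5.15 to 17.3%). The intervals of neighbours in this order overlap, except those of Flt3 and Il7r. Per kilobase of exonic sequence the level in cluster 2 was 26.3 CPM (counts scaled to a total of 1000000) for Cd27, 12.9 for Flt3, 8.44 for Cd3g, 8.11 for Ccr9 and 7.74 for Il7r, the last 3 of which lie close together. Cells of the cluster that had reads mostly had several. The median level over its cells with reads was 564 CPM for Ccr9, 217.3 for Cd3g, 181.2 for Il7r, 135.9 for Flt3 and 91.8 for Cd27, and 18 of 18 Ccr9 cells, 22 of 23 Il7r cells, 10 of 11 Cd3g cells, 40 of 45 Flt3 cells and 46 of 55 Cd27 cells held at least 5 reads. Over all kept cells, with every cell thinned to 50000 counts, reads remained in 21 cells for Ccr9, 20 for Il7r, 8 for Cd3g, 41 for Flt3 and 66 for Cd27. Because so few cells carry these genes, 1 cell can set a sum: the top cell held 28.5% of all Cd3g reads, 22.9% of Ccr9, 22.1% of Il7r, 8.73% of Flt3 and 7.04% of Cd27.

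In the 666 cells outside cluster 2, Il7r and Cd3g had 0 reads, which allows a share of up to 0.45% of cells. Flt3 was found in 7 cells, of which 5 held a single read and the highest held 7. Ccr9 was found in 3 cells, with 39 reads in an E11.5 HE cell of cluster 1, 16 in an E11.5 GFI1- IAHC cell of cluster 6 and 25 in an E11.5 GFI1+ IAHC cell of cluster 8. None of these 3 had reads of another member, Trbc2 or Ighm, and their CD45 fluorescence was 842, 125.7 and 427. Cd27 was the exception, with 48 cells outside cluster 2, 23 of them with at least 5 reads. They were 20 of the 76 cells of cluster 4 (26.3%, interval 16.9 to 37.7%), 12 cells of cluster 0 (6.94%) and 9 of cluster 1 (6.21%), with the others spread over clusters 3, 5, 8 and 9. Cluster 4 was made of 27 E10.5 and 42 E11.5 HE cells and 7 IAHC cells, so Cd27 was the 1 gene of the 5 with reads in many cells of an HE cluster. Its level there was 6.85 CPM (6.18 to 7.58) against 61.3 CPM (59.6 to 63.1) in cluster 2.

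Neighbouring genes could lend reads to these counts, since the sources used here do not say whether the counting used strand. The antisense gene Gm26597 lies within the Flt3 span and shares 0 exonic bases with it, yet 13 of the 14 cells with its reads also had Flt3 reads. Vamp1, on the other strand at Cd27, shares 0 exonic bases with it, and 30 of its 75 cells also held Cd27 reads. AC165425.1 covers 1932 bases (18.8%) of the exonic sequence of Ccr9 but held 5 reads in all, and 0 of its 2 cells had Ccr9 reads. Il7r and Cd3g had no overlapping gene in the annotation.

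**Figure D1:**
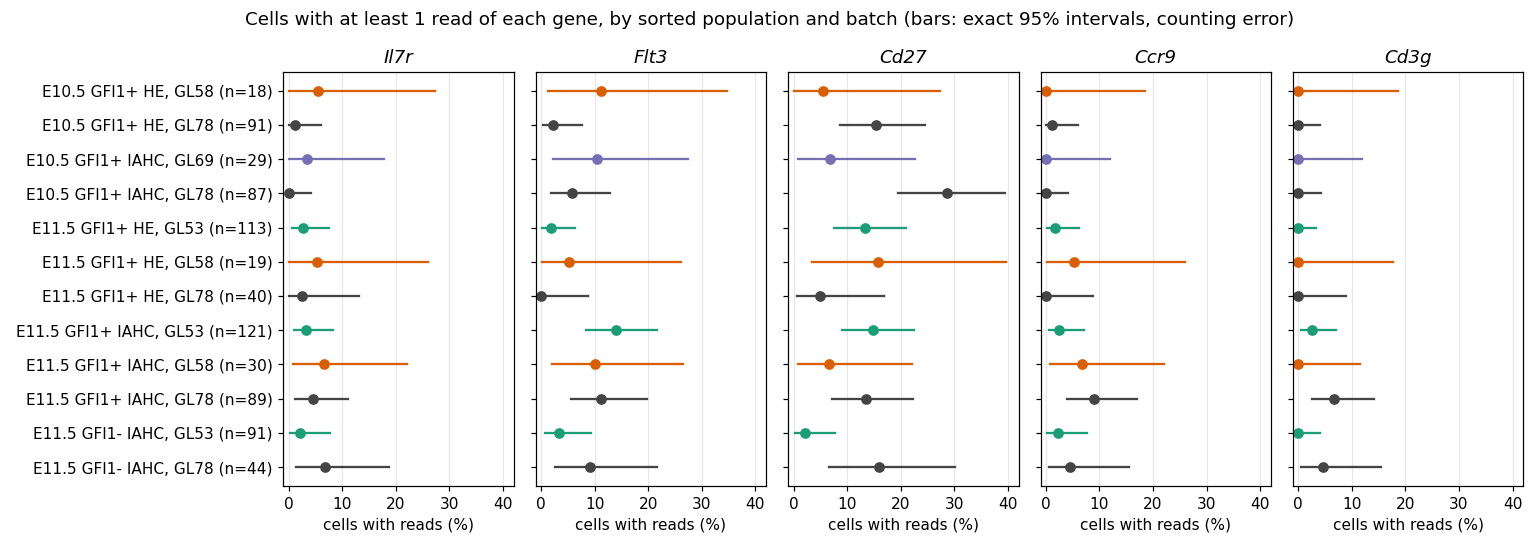
Share of kept cells with at least 1 read of each gene (x axis, %), by sorted population and batch (rows, with the number of cells), as points with exact 95% intervals for counting error. Cd27 reached 28.7% in E10.5 GFI1+ IAHC of GL78, Ccr9 and Cd3g were at 0 in both batches of that population, and Cd3g was above 0 only in rows of E11.5 IAHC.

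Il7r, the receptor chain that receives interleukin 7, was read in every population and batch with at least 10 kept cells except E10.5 GFI1+ IAHC of GL78, where 0 of 87 cells had reads, which allows a level of up to 0.041 CPM. At E10.5 it stood on 3 cells in all: 1 HE cell of GL58 that held all reads of its group (11.2 CPM for the group), 1 HE cell of GL78 with 26 reads (0.338 CPM) and 1 GFI1+ IAHC cell of GL69 with 7 reads (0.238 CPM). At E11.5 the level was 2.84, 0.473 and 8.89 CPM in HE of GL53, GL58 and GL78, on 3, 1 and 1 cells. It was 4.46, 3.59 and 10.05 CPM in GFI1+ IAHC, on 4, 2 and 4 cells, and 14.35 and 9.15 CPM in GFI1- IAHC of GL53 and GL78, on 2 and 3 cells. The ranges over batches of the E11.5 populations overlap for HE with GFI1+ IAHC, and for GFI1+ with GFI1- IAHC. A single GFI1- IAHC cell with 636 reads made up 84.5% of the GL53 value.

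Flt3, the kinase receptor of lymphoid-primed progenitors, was at 0.853 and 0.976 CPM in E10.5 HE of GL58 and GL78 and at 2.45 and 5.63 CPM in E10.5 GFI1+ IAHC of GL69 and GL78. At E11.5 it was at 25.99, 4.82 and 28.3 CPM in GFI1+ IAHC of GL53, GL58 and GL78, on 17, 3 and 10 cells (14.05, 10 and 11.2%). GFI1- IAHC held 6.52 CPM in GL53 and 27.1 CPM in GL78. E11.5 HE held 4.45, 13.4 and 0 CPM, on 2, 1 and 0 cells. The highest values were thus in E11.5 IAHC, with GL58 below the other batches, and the lone HE cell of GL58 put its batch above GFI1+ IAHC there.

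Cd27, the TNF receptor family member, was the gene most often read at E10.5, with 25 of 87 GFI1+ IAHC cells of GL78 (28.7%, interval 19.5 to 39.4%) at 22.8 CPM. In GL69 it was read in 2 of 29 such cells at 2.24 CPM, a share whose interval (0.846 to 22.8%) overlaps that of GL78 only at its upper end. E10.5 HE held 1.93 CPM in GL58 and 6.22 CPM in GL78. At E11.5, GFI1+ IAHC held 27.6, 6.17 and 10.8 CPM in GL53, GL58 and GL78, GFI1- IAHC held 1.11 and 4.68 CPM, and HE held 3.45, 5.56 and 0.278 CPM. Of the 20 E11.5 HE cells with Cd27 reads 17 lay outside cluster 2.

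Ccr9, the homing receptor for CCL25, was read in 1 cell at E10.5, an HE cell of GL78 with 54 reads. At E11.5 it was at 28.5, 30.3 and 27.7 CPM in GFI1+ IAHC of GL53, GL58 and GL78, on 3, 2 and 8 cells, and at 5.87 and 38.8 CPM in GFI1- IAHC on 2 cells in each batch. HE held 1.24, 16.6 and 0 CPM. The 3 GFI1+ IAHC values are close, but 66.4% of the GL53 reads came from the single cell with the most, which held 1543, and 96.5% of the GL58 reads from another.

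Cd3g, of the CD3 complex, was read only at E11.5 and only in IAHC. GFI1+ IAHC held 1.27, 0 and 29.2 CPM in GL53, GL58 and GL78, on 3, 0 and 6 cells, and GFI1- IAHC held 0 and 5.39 CPM, on 0 and 2 cells. It was at 0 reads in E11.5 HE, which allows a share of up to 1.74%, and in all E10.5 cells.

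HE and IAHC were set against each other within batches, and so were the stages, in 5 comparisons that share groups of cells. A gene was called past the fold where it was at least 2-fold apart in the same direction in every batch used and reached 10 CPM in the higher group of at least 1 batch, with ratios on the log2(CPM + 1) scale, which understates the change of low genes. Values given as folds, with their intervals, are ratios of CPM with nothing added. HE over GFI1+ IAHC at E11.5 gave mean log2 ratios over 3 batches of -0.77 ± 0.77 for Il7r, -1.96 ± 3.10 for Flt3, -2.01 ± 1.64 for Cd27, -3.13 ± 2.07 for Ccr9 and -2.03 ± 2.57 for Cd3g (SD over batches). All 5 means were below 0 and 0 of the 5 genes passed the fold, beside 1.3% of 10939 measured genes called lower in HE and 0.987% called higher. Cd3g had 0 reads in either group of GL58, so that batch gave no value for it, entered its mean as 0 and by itself kept it from passing. The median over the 5 genes was -2.01, against -0.09 over all measured genes. In GL58 Flt3 was higher in HE, at 1.30, and without that batch 4 of the 5 genes were past the fold, lower in HE. At E10.5, where GL78 alone could be used, Cd27 was the 1 member that reached 10 CPM and it was lower in HE, at a log2 ratio of -1.72 (0.273-fold, interval 0.246 to 0.302), beside 1.99% of 9577 genes called lower and 5.47% called higher.

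GFI1+ over GFI1- IAHC at E11.5, over GL53 and GL78, gave 2 genes past the fold. Cd27 was higher in GFI1+ cells, 24.99-fold (19.3 to 33.0) in GL53 and 2.30-fold (1.91 to 2.79) in GL78, a mean log2 ratio of 2.41 ± 1.92. Cd3g was higher too, at least 22.1-fold in GL53, where GFI1- cells held 0 reads (a count of 0 is taken as 3 counts for such bounds), and 5.42-fold (4.59 to 6.44) in GL78. Its reads lay in 3 GFI1+ cells of GL53, and in 6 GFI1+ and 2 GFI1- cells of GL78. The share of all 10995 measured genes called higher was 0.564%, and 2% were called lower. The median over the 5 genes was 0.95, against -0.02 over all measured genes. Il7r (-0.68 ± 1.14), Flt3 (0.95 ± 1.26) and Ccr9 (0.82 ± 1.82) did not pass, and each of them moved by less than its SD over the 2 batches. These calls depended on the processing: with a pseudocount of 5 CPM 0 of the 5 genes passed, without the cells of clusters 6 to 10 it was 1, and in GL53 alone it was 4, with 3 higher (Flt3, Cd27 and Ccr9) and Il7r lower.

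**Figure D2:**
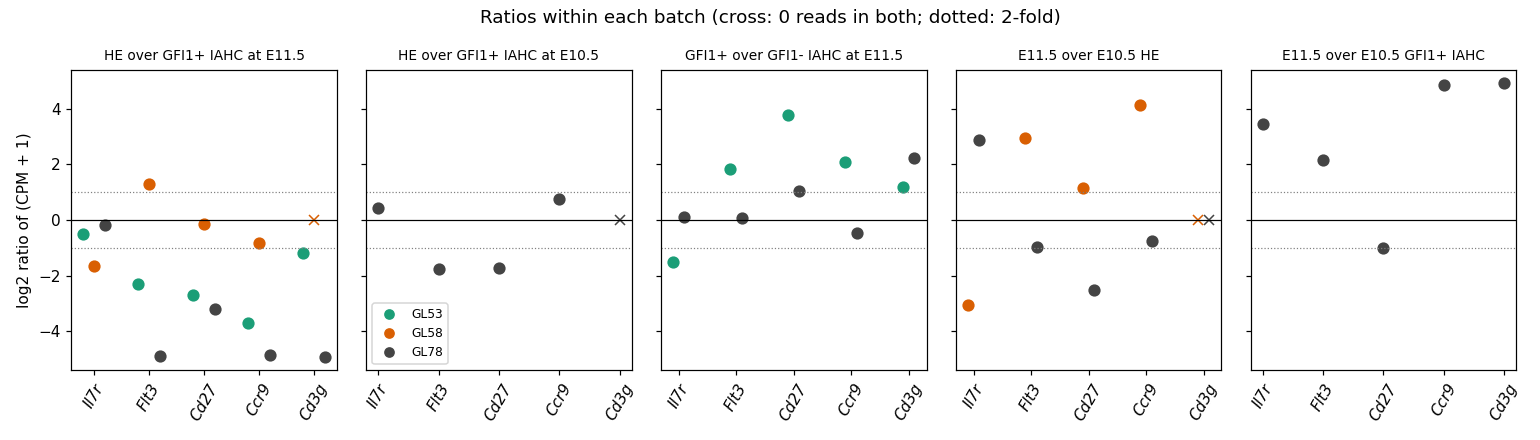
Log2 ratio of (CPM + 1) of the first over the second group within each batch (y axis), for each gene in 5 comparisons (panels), with 1 point per batch and a cross where both groups had 0 reads. The 3 points of HE over GFI1+ IAHC at E11.5 span 1.30 to -4.87 for Flt3, and the points of E11.5 over E10.5 HE lie on opposite sides of 0 for Il7r, Flt3, Cd27 and Ccr9.

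Between stages, GFI1+ IAHC could be compared in 1 batch and HE in 2, so only in HE could batches disagree. In GFI1+ IAHC, for which GL78 alone held both stages, 4 genes were higher at E11.5: Il7r at least 245.2-fold, Ccr9 at least 677-fold and Cd3g at least 713-fold, since the 87 E10.5 cells held 0 reads of each, and Flt3 5.03-fold (4.52 to 5.60). These folds count reads, which lay in 4, 8, 6 and 10 of 89 E11.5 cells. By share of cells the intervals of the stages overlap. For Il7r, Ccr9 and Cd3g they reached 4.15% at E10.5 and began at 1.24, 3.96 and 2.51% at E11.5. For Flt3 they were 1.89 to 12.9% and 5.52 to 19.7%. Cd27 was lower at E11.5, at 0.472-fold and a log2 ratio of -1.02. Of 9797 measured genes 8.79% were called higher and 2.48% lower in this comparison, so calls were common, and the median log2 ratio was 3.47 over the 5 genes (that of Il7r, whose fold is the bound of 245.2) against 0.07 over all measured genes. With the cell with the most reads of each gene left out of each group 3 of the 5 genes were past the fold, and with the cells that the authors left out added it was also 3. In HE, 0 of the 3 measured genes passed (2.73% of 10531 genes called higher and 2.26% lower) and the batches disagreed: Il7r was at a log2 ratio of -3.05 in GL58 and 2.89 in GL78, and Flt3 at 2.95 and -0.98. Each of these values rested on 0 to 2 cells with reads per group.

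The change between stages was seen within cluster 2 as well. Il7r was read in 3 of 53 and 20 of 56 (5.14 and 75.5 CPM), Flt3 in 11 and 34 (12.8 and 164.96 CPM), Ccr9 in 1 and 17 (1.21 and 187.8 CPM) and Cd3g in 0 and 11 (0 and 62.8 CPM), where 0 of 53 cells allows a share of up to 5.66%. Cd27 was read in 27 and 28 cells, 50.9 and 50% of the cells, at 41.8 and 86.3 CPM. The E10.5 cells were the deeper ones, with a median of 848596 counts against 611006, and in cells thinned to 50000 counts the numbers with reads were 2 and 18 for Il7r, 9 and 30 for Flt3, 1 and 17 for Ccr9, 0 and 8 for Cd3g and 21 and 25 for Cd27. The gap between the stages remained at equal depth.

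Most E10.5 cells of cluster 2 came from GL78 (45 of 53) whereas the E11.5 ones came from GL53 (28), GL78 (23) and GL58 (5), and the direct comparison is that of GFI1+ IAHC cells of cluster 2 within GL78, 36 at E10.5 and 15 at E11.5. There Flt3 had reads in 5 cells at 13.7 CPM at E10.5 and in 10 cells at 199.04 CPM at E11.5. Ccr9 was in 0 and 8 cells (195.2 CPM at E11.5), Cd3g in 0 and 6 cells (205.7 CPM) and Il7r in 0 and 4 cells (70.7 CPM). All 4 were thus higher at E11.5 in cells of the same gate, batch and cluster, on different plates. Endothelial markers differed between these cells as well. Cdh5, which encodes VE-cadherin, had reads in 30 of the 36 E10.5 cells and in 0 of the 15 E11.5 cells, and the 9 markers of the endothelial list summed to 142.5 to 4876 CPM (median 2056, 3 to 9 genes with reads) at E10.5 and to 0 to 1749 CPM (median 242.8, 0 to 6 genes) at E11.5. Their part in the difference was not tested. Cd27 was at 54.1 CPM (51.6 to 56.8) in 22 of 36 cells and at 59.3 CPM (54.5 to 64.4) in 6 of 15. Its ratio in cluster 2 alone, a log2 value of 0.13, thus had the opposite sign to the whole population. In that batch 36 of 87 E10.5 and 15 of 89 E11.5 GFI1+ IAHC cells belonged to cluster 2, and fewer cells of a kind and fewer reads per cell cannot be told apart in the summed values. Within GL78 the cluster 2 cells came from 1 plate at E10.5 (45 cells) and 1 plate at E11.5 (23 cells). Stage and plate therefore cannot be told apart in this comparison. Over all batches, Il7r, Flt3, Cd27 and Ccr9 were each read in cluster 2 cells of 4 E11.5 plates, and Cd3g of 2.

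The 5 genes were also read together. Of 775 cells, 635 held reads of none, 93 of 1, 32 of 2, 7 of 3 and 8 of 4 genes, and none held all 5. The 47 cells with at least 2 (6.06%, interval 4.49 to 7.98%) were in cluster 2 with 1 exception, a cell of cluster 0 with 1 Flt3 read beside its Cd27 reads. In cluster 2 they were 46 cells (42.2%, 32.8 to 52%), 10 of 53 at E10.5 and 36 of 56 at E11.5. In GFI1+ IAHC of GL78 they were 5 of 36 at E10.5 (13.9%, 4.67 to 29.5%) and 11 of 15 at E11.5 (73.3%, 44.9 to 92.2%). At 50000 counts per cell 37 of the 47 cells still held at least 2.

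The 8 cells with 4 genes held the same 4, Il7r, Flt3, Cd27 and Ccr9, and all were E11.5 cells of cluster 2, from HE (2 cells), GFI1+ IAHC (5) and GFI1- IAHC (1) and from GL53 (2), GL58 (2) and GL78 (4). In them Il7r ran from 1.12 to 449 CPM, Flt3 from 106.3 to 941, Cd27 from 59.1 to 246.9 and Ccr9 from 29.1 to 2121. All 8 had reads of Trbc2, the constant part of a T cell receptor beta chain, at 66 to 1831, and 7 of the 8 had reads of Ighm, the IgM heavy chain, at 370 to 1668. None had Cd3g, Cpa3 or Gata1 reads, while 2 had reads of Hdc, a mast cell and basophil gene, at 61 and 413.

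Among pairs, Ccr9 went most with Flt3. In cluster 2, 15 of 18 Ccr9 cells (83.3%) had Flt3 reads, against 41.3% of the whole cluster, and 10 of 18 had Il7r reads, against 21.1%. Of the 18, 17 were E11.5 cells. Among E11.5 cells of the cluster alone the shares were 88.2% against 60.7% for Flt3 and 58.8% against 35.7% for Il7r. Of the 23 Il7r cells 15 had Flt3, 13 had Cd27 and 10 had Ccr9. Of the 45 Flt3 cells 31 had Cd27, and Flt3 with Cd27 was the most frequent pair, with 18 cells of cluster 2 holding those genes and no other member. At E10.5 the pairs were fewer: 8 of 11 Flt3 cells had Cd27, and the 3 Il7r cells held Flt3 in 2 cases and Cd27 in 2. These shares were counted at unequal depths per cell, and those of the whole cluster mix the stages. They are given as a description.

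Cd3g stood apart. It shared 0 cells with Cd27 (0 of 11 and 0 of 55), and of its 11 cells 6 held no other member, 2 held Il7r, 2 held Flt3 at 1 and 3 reads, and 1 held Ccr9.

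**Figure D3:**
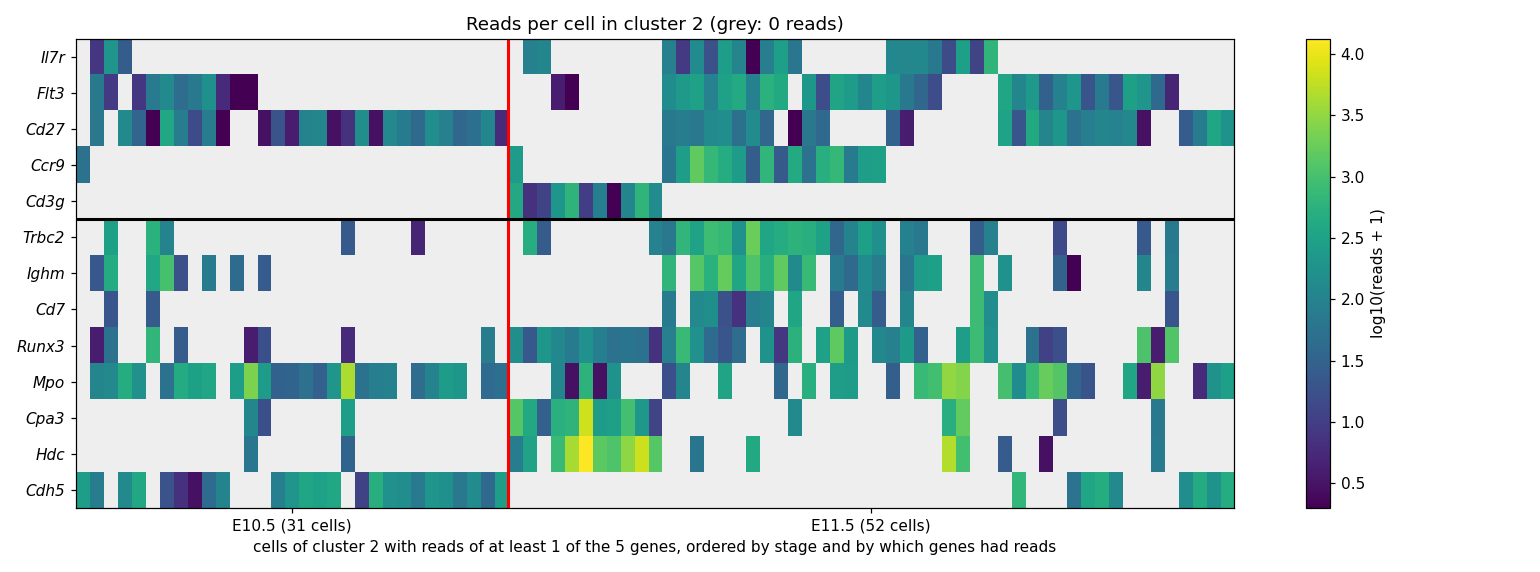
Reads per cell, as log10(reads + 1) in colour with grey for 0, in the 83 cells of cluster 2 with reads of at least 1 of the genes (columns, 31 at E10.5 left of the red line and 52 at E11.5), for the 5 genes (upper rows) and 8 others (lower rows). Columns are ordered by stage and then by which genes had reads, so the Cd3g cells stand together by this order alone. Most E11.5 cells with Ccr9 also hold Trbc2 and Ighm. The Cd3g cells all hold Cpa3 and most hold Hdc, and some cells without Cd3g hold both as well.

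Other genes fixed in lists were counted in the same cells. Of the receptor partners, Il2rg, which encodes the common gamma chain that pairs with the IL-7 receptor, had reads in 21 of 23 Il7r cells, and Jak3, the kinase bound to it, in 20 of 23. Both were chosen after their values were seen. Their counts over the whole of cluster 2 are not set beside these, so they do not show that either gene followed Il7r within the cluster. By summed level, 2 of the 10 measured partner genes were at least 2-fold higher in cluster 2 than in the other clusters and 0 were lower, beside 8.35% of 11725 measured genes higher and 12.3% lower. Of the 5 ligands on the list 4 were found in the count table, and that of Flt3 was not matched and not analysed here. Il7 had reads in 12 kept cells, Tslp in 39 and Cd70 in 0. Ccl25 was read more often, in 30.3% of cluster 2 cells, at 8.74 CPM there and 5.60 CPM in the other clusters. None of the 4 reached 10 CPM in any group and batch.

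Lymphoid genes were read with the members to different extents. Runx3 and Satb1, factors of T and innate lymphoid cells, had reads in 19 and 20 of 23 Il7r cells and 14 and 16 of 18 Ccr9 cells, against 49 and 64 cells of the whole cluster. Trbc2 was read in 17 of 23 Il7r cells, 16 of 18 Ccr9 cells, 23 of 45 Flt3 cells and 18 of 55 Cd27 cells, and in 32 cells of the cluster in all. Ighm was read in 15 of 23, 14 of 18, 28 of 45 and 20 of 55, and in 31 cells in all. Of the 15 cells with at least 3 of the members, 13 had Trbc2 reads and 12 had Ighm reads, against 1 and 0 of the 26 cells of the cluster with none. These 2 sets also differ in stage: 14 of the 15 were E11.5 cells and 22 of the 26 were E10.5 cells. Cd7, a surface gene of early T and NK cells, was in 12 of 23 Il7r and 11 of 18 Ccr9 cells out of 17 in the cluster. Rag2, of the recombinase, was read in 8 cells of cluster 2, all at E11.5 and all with Flt3 reads, and Rag1 in 5. However, 1 of the 8 Rag2 cells held a single Flt3 read beside 602 Cd3g reads. Flt3 was read in 34 of the 56 E11.5 cells of the cluster. Pax5, which commits cells to the B lineage, was read in 4 cells of cluster 2, all 4 of them with Il7r and Flt3. Trbc2 was read in 6 of 53 E10.5 and 26 of 56 E11.5 cells of the cluster, Ighm in 8 and 23, Cd7 in 2 and 15 and Runx3 in 11 and 38, the same direction in time as Il7r, Flt3 and Ccr9. Cells with these members and the whole cluster thus differ in stage, and the part of stage in the shares above was not tested.

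By list, 6 of the 19 CD3 and T cell receptor genes reached 10 CPM in some group and batch, and 3 of these were at least 2-fold higher and 1 lower in cluster 2 than in the rest. The higher ones were led by Trbc2 (117.9 against 0.112 CPM), and the lower one was Lck (29.4 against 85.8 CPM). Of 5 measured B lineage genes 2 were higher (Ighm, at 161.2 against 4.83 CPM, and Cd79b, at 48.9 against 10.7) and 1 was lower (Ebf1, at 8.79 against 38.95). All 8 measured innate lymphoid and NK genes were higher, with Nkg7 at 56.9 CPM against 0 reads elsewhere, and 13 of 15 measured genes of the lymphoid-primed progenitor surface were higher, with 0 lower. Of 19 lymphoid transcription factors 8 were higher and 5 lower. Of the families the members belong to, 6 of 9 other chemokine receptors were higher and 1 lower, 3 of 9 other TNF receptor family genes were higher and 1 lower, and 2 of 4 class III receptor kinases (Kit and Csf1r) were higher and 1 lower. Because the clusters were made from these cells, these counts describe cluster 2 and were not tested.

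Markers of other blood and tissue cells were counted in the same way. All 6 measured myeloid granule markers and 2 of 3 mast and basophil markers were higher in cluster 2. All 9 endothelial markers were lower, as were 6 of 8 megakaryocyte (1 higher), 3 of 4 erythroid, 3 of 7 germ cell, 4 of 7 mesenchyme and 4 of 11 macrophage markers (2 higher). Mpo, which encodes the myeloperoxidase of granules, had reads in 71 cells of cluster 2, among them 40 of 55 Cd27 cells, 31 of 45 Flt3 cells, 12 of 23 Il7r cells, 7 of 18 Ccr9 cells and 5 of 11 Cd3g cells. Csf1r, the macrophage growth factor receptor, had reads in 10 of 23 Il7r, 9 of 18 Ccr9 and 0 of 11 Cd3g cells. Among the members, endothelial genes were read most with Cd27, and they were also read in cells with no member. Cdh5 had reads in 33 of 55 Cd27 cells and 16 of the 26 cells with none of the 5 genes, against 12 of 45 Flt3 cells, 2 of 23 Il7r cells, 1 of 18 Ccr9 cells and 0 of 11 Cd3g cells. The Cd27 cells held reads of a median of 7 of the 9 endothelial markers at a summed 1684.5 CPM, and the cells with no member 8 at 2053 CPM. Cdh5 was read in 41 of 53 E10.5 and 9 of 56 E11.5 cells of the cluster, so the genes with and without Cdh5 also differ in stage, and the part of stage in these shares was not tested.

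**Figure D4:**
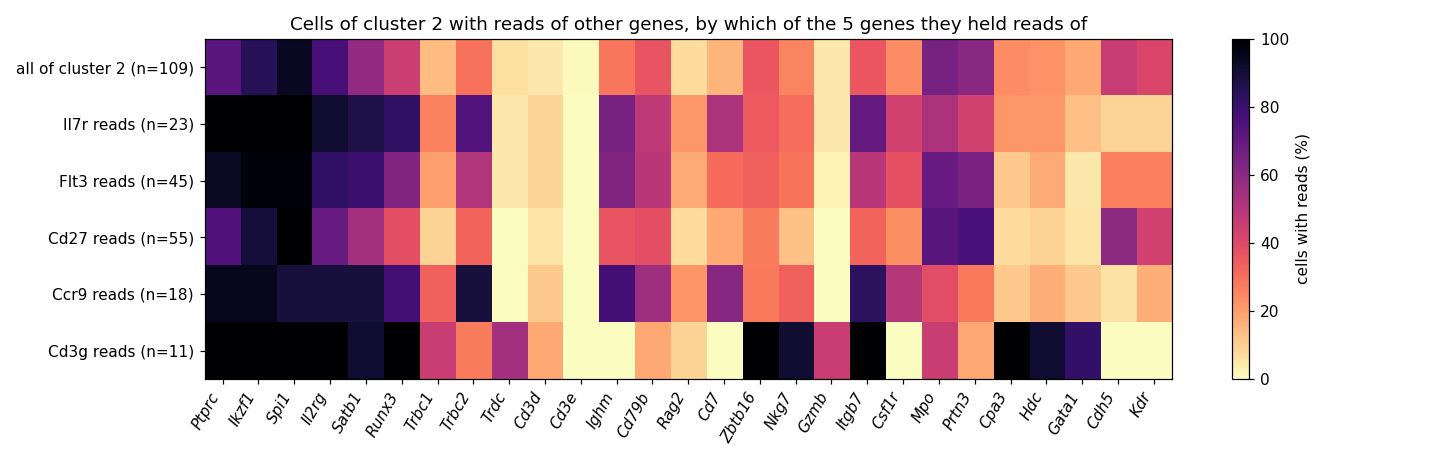
Share of cells of cluster 2 with reads of other genes (columns, colour from 0 to 100%), for the whole cluster and for the cells with reads of each of the 5 genes (rows). The Cd3g row is at 100% for Cpa3 and Zbtb16 and at 0 for Cd3e, Ighm, Cd7 and Cdh5, and the Il7r and Ccr9 rows are alike in Trbc2, Ighm and Cd7.

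The cells with Cd3g reads, a T cell gene by its known use, held reads of some other T cell genes and not of others. Of the 19 genes of the CD3 and T cell receptor list, 8 had reads in at least 1 of the 11 cells and 11 had none. Constant genes of the receptor were read, with Trdc, of the delta chain, in 6 cells, Trbc1 in 5 and Trbc2 in 3, which together were 8 of the 11 cells. Lat, an adaptor of receptor signalling, was in 5. Cd3e, another chain of the CD3 complex, had 0 reads in all 11, Cd247, the zeta chain, had 0 reads in all 11, Lck, the first kinase of T cell receptor signalling, had 0 in all 11, and Cd3d was read in 2, at 8 and 86 reads. Mast cell and basophil markers were read in every one of them. Cpa3, a mast cell protease, was in 11 of 11 at 11 to 6995 reads, Hdc, which makes histamine, in 10 of 11 at 82 to 13278 reads and Gata1 in 9 of 11. Over the 7 markers of that list, the 11 cells held reads of 1 to 4 genes, with a summed level from 67.2 to 26480 CPM, and Fcer1a, Ms4a2 and Mcpt8 were at 0 in all 11. The same list was at 0 to 6 genes and 0 to 11991 CPM in the 23 Il7r cells (median 0), at 0 to 4 genes and 0 to 7887 CPM in the 45 Flt3 cells, at 0 to 3 genes and 0 to 2901 CPM in the 18 Ccr9 cells and at 0 to 2 genes and 0 to 462 CPM in the 55 Cd27 cells. In the 26 cells of the cluster with none of the 5 genes it was at 0 to 4 genes and 0 to 14310 CPM. Innate lymphoid genes were read there too: Zbtb16, the factor PLZF, in 11 of 11, Nkg7, a granule gene of killer cells, in 10 of 11 and Gzmb, encoding granzyme B, in 5 of 11, which were all the kept cells with Gzmb reads. The cells with the most Cd3g reads, 628, 602 and 400, held 6679, 4164 and 82 Hdc reads. By the deposited cell cycle calls 10 of the 11 were in G1 and 1 in G2M. The part of mast and basophil cells in the Cd3g result was not tested, and these cells are named here only by their reads.

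The index sort gave the CD45 protein of most cells. Of the 775 kept cells, 55 had no index-sort value, among them the E10.5 Il7r cells of GL58 and GL69. At E11.5 cluster 2 cells were far brighter for CD45 than other cells, with medians of 12138 against 591 in GL53, 19233 against 758 in GL58 and 18420 against 737 in GL78 (arbitrary fluorescence units, not scaled between sorts). All 20 E11.5 cells with Il7r reads had a value, from 12067 to 36118 in GL53, 16295 to 23906 in GL58 and 9671 to 34076 in GL78, which in each batch is above the 90th percentile of the other clusters (1216, 1523 and 2054). Cells with Ccr9 reads in cluster 2 lay at 20307 to 23573 in GL53 and at 5680 to 34076 in GL78, and Cd3g cells at 12067 to 30405 and 9671 to 28976. Flt3 and Cd27 reached lower, to 1354 and 904 in GL53 and both to 2765 in GL78. At E10.5 in GL78 the cluster had a median of 701 against 429, the lone Il7r cell was at 673 and the lone Ccr9 cell at 315.5, while Flt3 cells ran from 278.1 to 19826. CD45 brightness and stage move together here, and their separate parts in the member reads were not tested.

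**Figure D5:**
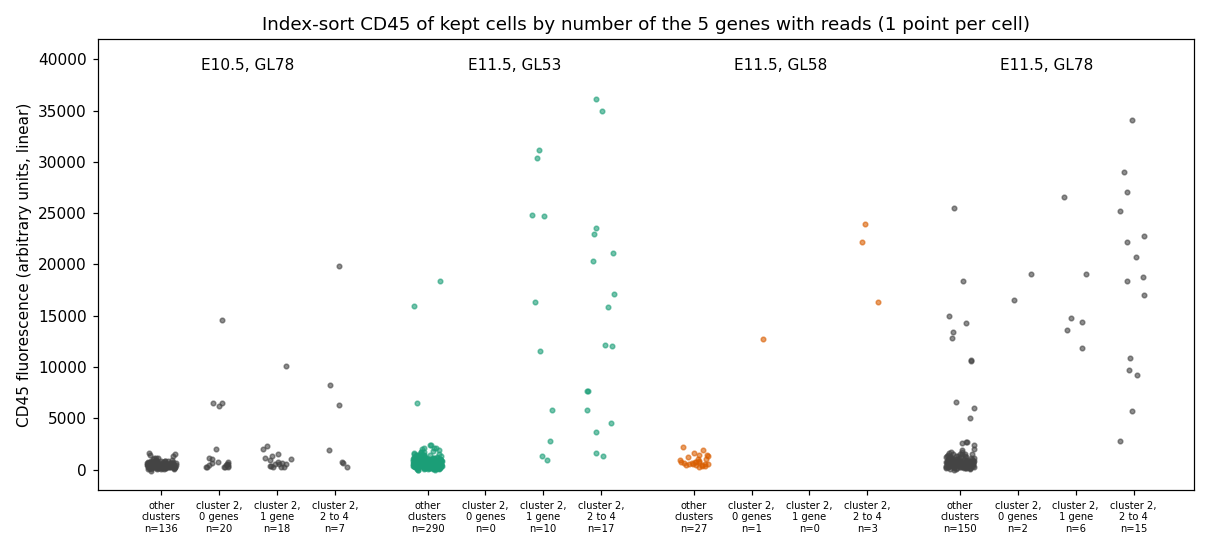
CD45 fluorescence of single cells (y axis, arbitrary linear units) by stage and batch, for cells of other clusters and for cells of cluster 2 with reads of 0, 1 or 2 to 4 of the genes (x axis, 1 point per cell, n below). At E11.5 the cluster 2 cells with 2 to 4 genes reach from 1354 to 36118, while other clusters have medians of 591 to 758, and at E10.5 most points of cluster 2 lie with the other clusters.

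The HE gate held some of these cells. Among E11.5 cells sorted as HE, 7 were in cluster 2, and 5 of these had reads of at least 1 member: all 5 had Il7r, at 8 reads or more, 3 had Flt3, 3 had Cd27, 2 had Ccr9 and 0 had Cd3g. Of the 9 endothelial markers, Cdh5, Kdr, Tek, Cldn5, Emcn and Esam had 0 reads in all 7, while Pecam1, which encodes the CD31 used in the sort, had reads in 4, Egfl7 in 2 and Tie1 in 1. Each of the 5 cells with a member held reads of 1 or 2 of the 9, at a summed 24.04 to 292.9 CPM. Ptprc and Spi1 had reads in all 7. Of the 5 cells with a member, 2 held Il7r and no other member, 1 of GL53 and 1 of GL78. These 2 held Mpo (3206 and 2574 reads), Cpa3 (499 and 1628) and Hdc (4856 and 929). The other 3 held 16 to 110 Mpo reads and 0 reads of Cpa3 and Hdc. Of the 7, 6 had an index-sort value, with CD45 from 12750 to 36118 and cKIT from -426 to 289.4. All Il7r and Flt3 reads of cells labelled E11.5 HE thus came from cells without Cdh5, Kdr or Tek reads. For Ccr9, 39 reads came from the HE cell of cluster 1 and all others from cluster 2, while most HE cells with Cd27 lay outside it. At E10.5, 11 HE cells were in cluster 2, 5 of them had a member, and 3 of these 5 had Cdh5 reads, 1 with Il7r and Cd27, 1 with Flt3 and Cd27 and 1 with Ccr9. The 5 cells held 1 to 9 of the endothelial markers at a summed 111.6 to 4186 CPM.

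Genes most like each member were taken from 12983 named genes by the correlation of log2(CPM + 1) over 27 sums of cluster and batch, which share libraries and in which cluster 2 is the main high point. For Il7r they were Napsa (Pearson r = 0.997), Runx3 (0.994), Tnfsf11 (0.991), Cd7 (0.988) and Prss2 (0.985). For Flt3 they were Gpr141 (0.998), Cd244a (0.994), Il18rap, Tespa1 and Cdh17 (0.989 for the last). For Ccr9 they were Tnfsf11 (0.965), Pira2, Gpr171, Prss2 and Cd7 (0.960). Cd27 had lower values, from 0.884 for Pglyrp2 to 0.870 for Gfi1. Cd3g went with Ccr8 (0.999), Gzmb (0.999), Il13 (0.995), Ccl5 (0.980) and Kel (0.945), of which Ccr8, Il13 and Ccl5 encode a chemokine receptor, a cytokine and a chemokine of T, innate lymphoid and mast cells, and 0 of these 5 are shared with the lists of the other members.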

How the data were processed

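Reads per gene were taken from the table of counts for 860 cells, which the authors deposited raw. The submitters' processing notes name the aligner STAR 2.7.3, the build mm10 and the counter HTSeq 0.9.1. Fluorescence intensity per cell (CD45, cKIT and others) was deposited by the authors as the sorter recorded it. Clusters, cell cycle calls and the 775 kept cells were those of the deposited annotation (Scanpy 1.4.4), and the normalized table was not used. The count table held 46078 genes, 935 of which had no symbol (0.0682% of counts), and 92 spike-in rows with 0 counts. No per-sample column was left unassigned. The members and the gene lists were chosen with earlier results of these data known.

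Cells were grouped by the stage, population and batch of their labels. Counts were summed per group and batch in Python 3.11.15 (numpy 2.4.6, pandas 2.3.3, scipy 1.17.1, and matplotlib 3.10.9 for plots), scaled to CPM and given exact Poisson intervals, and shares of cells were given exact Clopper-Pearson intervals. Ratios of CPM + 1 used batches with at least 10 cells in both groups, each weighted equally. Their calculation was run on simulated sums with counting error alone. Those sums lacked the spread between cells, so they do not show how calls behave for genes read in few cells. Library scaling by edgeR 4.0.16 (TMM, R 4.3.3), other pseudocounts, minimum levels, cells thinned to 50000 counts (seed 11), all deposited cells and left-out batches were the alternatives. Leaving out the top cell, using cluster 2 alone and using GL78 alone were chosen after seeing the data.

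Named genes were the 5 members, the 3 highest genes of each list in cluster 2, the 5 genes most correlated with each member among those reaching 10 CPM, and overlapping genes. Other genes named in the text, among them Runx3, Satb1, Cd7, Rag1, Rag2, Pax5, Il2rg, Jak3, Zbtb16, Gzmb, Trdc, Cd3d, Cd3e and Cd247, were chosen after their values were seen. 1 gene that the rule names is not reported here.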

Additional observations from a re-analysis of the deposited data

Results flagged for a closer look

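HE over GFI1+ IAHC went in opposite directions at E10.5 and E11.5 for a pair of genes. For Il7r the mean log2 ratio was -0.7698 at E11.5, below 0 in 3 of 3 batches, and 0.4204 at E10.5. For Ccr9 it was -3.131 at E11.5, again below 0 in 3 of 3 batches, and 0.7678 at E10.5. Both E10.5 values rest on 1 batch and 1 HE cell with reads, 26 reads of Il7r and 54 of Ccr9, and the difference was not tested.

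The 85 cells that the authors left out also held reads of 4 of the genes. Cd3g stood at 63.37 CPM over their summed counts, on 2 cells, both E11.5 GFI1+ IAHC, 1 of which held 1173 reads. Flt3 stood at 19.68 CPM on 2 cells, 1 of which held 400 reads, Cd27 at 6.975 CPM on 9 cells and Il7r at 3.35 CPM on 4 cells, while Ccr9 had 0 reads. Of the 17 left-out E11.5 GFI1+ IAHC cells, 4 held reads of at least 2 of the genes.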

How the results depend on the processing

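Of 70 recomputed counts and shares, 56 stayed within 1.5 times the reported value or its interval and 14 moved, and of the values of single genes 73 moved, 1 reversed and the others stayed. The number of genes past the fold in HE over GFI1+ IAHC at E11.5, reported as 0, was 1 without the cells of clusters 6 to 10, 1 without the cell with the most reads of each gene, and 0 to 4 with each batch left out in turn, with 4 (all lower in HE) without GL58. In the same comparison at E10.5, reported as 1, it was 2 with no CPM minimum. In GFI1+ over GFI1- IAHC, reported as 2, it was 0 with a pseudocount of 5 CPM, 1 without clusters 6 to 10 and 2 to 4 with a batch left out, with 4 without GL78. In E11.5 over E10.5 HE, reported as 0, it was 0 to 3 with a batch left out, with 3 (2 higher, 1 lower) without GL78. In E11.5 over E10.5 GFI1+ IAHC, reported as 5, it was 3 with all deposited cells and 3 without the top cells. Cells with at least 2 of the genes, reported as 47, numbered 25 without GL78, 28 without GL53 and 46 without GL69. The share of cluster 2 cells with Flt3, reported as 41.28%, was 33.33 to 63.41% with a batch left out, highest without GL78, and 27.94% in GL78 alone. Cd27 in E11.5 over E10.5 GFI1+ IAHC reversed to a log2 ratio of 0.1291 in cells of cluster 2 alone. Apart from the settings that leave out cells or batches, the cause of these changes was not tested.

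No paired analysis was possible because replicate numbers only count cells in accession order and pair no animals. Groups count as 1 sample each, batches of a stage can share embryos, most values rest on fewer than 10 cells with reads, and at low levels a cell's reads can be 0 by sampling, so an absent read does not show an absent transcript.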

Other observations

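Genes were also ranked by the cells they shared with each member (cells with reads of both over cells with reads of either, among 15815 genes, a ranking added after the values were seen). For Il7r the top gene was Napsa, an aspartic protease gene, read in 19 of its 23 cells and in 37 cells in all, followed by Trbc2, with 17 of its 23 cells, and by Cd7, Cd74 and Trbj2-1. For Ccr9 it was Trbj2-1, a joining segment of the T cell receptor beta locus, with 11 of its 21 cells out of 14 in all, then Irf4, a factor of lymphocyte activation, with 10 of 21 out of 12 in all. For Flt3 it was Tnni2, with 33 of its 52 cells out of 48 in all, then Gpr171, with 39 of 52 out of 74.

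For Cd3g it was Trdv4, a variable segment of the T cell receptor delta locus, with 8 of its 11 cells out of 9 in all, then Il13, a type 2 cytokine, with 10 of 11 out of 15, Gpr174 with 11 of 11 out of 18, Kel with 9 of 11 out of 13 and Adora3 with 8 of 11 out of 11. Segments of the receptor loci and their constant genes lie close together, so reads of one such gene are not independent of reads of the next.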
